A study of Vulpes lagopus with 12 samples.

Results

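Haem is the iron-holding ring of haemoglobin, and the enzymes described here make it and take it apart. They were chosen by name: ALAS2, ALAD, UROS, UROD, CPOX, PPOX and FECH for synthesis, HMOX1 and BLVRB for breakdown. All 9 genes had at least 1 probe set that carried that gene symbol alone, 19 probe sets in all, out of 15115 genes and 42924 probe sets measured. The study looked at polychlorinated biphenyls and mercury in Arctic foxes (Vulpes lagopus); RNA of field blood samples was hybridised to Affymetrix Canine Genome 2.0 arrays, which carry probes for dog transcripts. The groups are 11 foxes, numbered here by their order in the series, and 1 array titled a canine control, whose labels otherwise name the same fox species and blood cells. Genotype, treatment, age and the contaminant load of single foxes were not used here, so foxes are not grouped by exposure; no label states separate animals, so p-values measure the spread between these samples, which may be technical.

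Haem synthesis starts in the mitochondrion, where an aminolaevulinate synthase joins glycine and succinyl-CoA. The housekeeping form ALAS1 serves most tissues and the liver above all, while ALAS2 serves red cell precursors and is limited there by iron. ALAD, UROS and UROD build and trim the ring in the cytosol, and CPOX, PPOX and FECH finish it in the mitochondrion, FECH by inserting iron. HMOX1, an inducible haem oxygenase, opens the ring to biliverdin, and biliverdin reductases, among them BLVRB, reduce it; BLVRB is abundant in red cells. In mammals, lead is known to inhibit ALAD, and mercury and chlorinated aromatic compounds are known to disturb porphyrin handling.

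All values are log2 values on the scale of the deposited table, and levels of different probe sets are not set against each other. Markers of other tissues were high on the control array and neutrophil markers low. Liver markers had a mean level between 6.56 and 6.91 in the foxes and of 12.45 on the control, and intestinal markers between 5.80 and 6.20 in the foxes and of 14.78 on the control. Neutrophil markers had a mean level between 10.43 and 12.84 in the foxes and of 7.34 on the control. Foxes 9, 10 and 11 stood apart from foxes 1 to 8 in how far the 3' control probe set for GAPDH exceeded the middle one (0.54, 0.42 and 1.08, against 2.56 to 3.19), and fox 2 on the BioB hybridisation spike (11.85, against 9.35 to 10.13 in foxes 1 and 3 to 8). Foxes 9, 10 and 11 are therefore given apart from foxes 1 to 8, and correlations are given within foxes 1 to 8 alone, with and without fox 2. On the GAPDH measure the control stood at -0.08, below all 11 foxes. Fox minus control differences therefore cannot be told apart from this difference in array controls.

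The first question is how far the enzymes differed between foxes. ALAS2, the first enzyme of synthesis in red cell precursors, had the widest range. Its lowest value was 10.89 in fox 1, its median 13.51 and its highest 15.05 in fox 9 (mean 13.23 ± 1.53, SD, n = 11). Foxes 1, 3 and 6 lay low, between 10.89 and 11.60, while foxes 2, 9 and 11 lay between 14.95 and 15.05, so the foxes spanned 4.16 log2 units.

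The next enzymes varied much less. ALAD, which condenses 2 aminolaevulinate molecules, ran from 8.44 in fox 3 over a median of 8.80 to 9.41 in fox 2 (SD 0.28). UROS, which closes the ring, ran from 7.22 in fox 1 over a median of 7.87 to 8.44 in fox 11 (SD 0.31). UROD, which removes carboxyl groups from uroporphyrinogen, had the broader range of 7.22 in fox 6, a median of 8.25 and 9.33 in fox 11 (SD 0.64). Foxes 3 and 6 were the lowest in UROD, and foxes 11, 7 and 2 the highest.

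Of the mitochondrial enzymes, CPOX and PPOX were even and FECH was not. CPOX, the coproporphyrinogen oxidase, ran from 6.13 over a median of 6.40 to 6.65 (SD 0.17), and PPOX, which forms protoporphyrin, from 9.32 over 9.72 to 10.06 (SD 0.26). In all foxes CPOX lay under the median of the array, which was 7.06 to 7.17. CPOX is not shown to be above background, so how even its transcript was is not shown either. FECH, the iron-inserting last enzyme, ran from 9.75 in fox 6 over a median of 10.44 to 12.88 in fox 2 (SD 0.98). The next fox in FECH was fox 7, at 11.54. FECH had 5 probe sets, and within foxes 1 to 8 the other 4 followed the one used here with a Pearson r of 0.99, 0.92, 0.72 and 0.07. The last of these was flat, between 8.54 and 8.83 in all 11 foxes, so the spread of FECH rests on part of its probe sets.

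Of the breakdown enzymes, HMOX1 was even and BLVRB was not. HMOX1 ran from 7.29 in fox 2 over a median of 7.68 to 8.36 in fox 1 (SD 0.33); fox 1 was the lowest fox in ALAS2 and fox 2 the highest in FECH. BLVRB ran from 7.95 in fox 3 over a median of 9.37 to 10.70 in fox 2 (SD 0.92). Its further probe sets had an r of 0.81 and 0.03 with the one used. Fox 3 was not above the fox median in any of the 9 genes and was the lowest fox in 4, while fox 7 was above the median in all 9. Fox 2 was the highest fox in 4 genes, ALAD, PPOX, FECH and BLVRB, and the lowest in HMOX1.

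**Figure D1:**
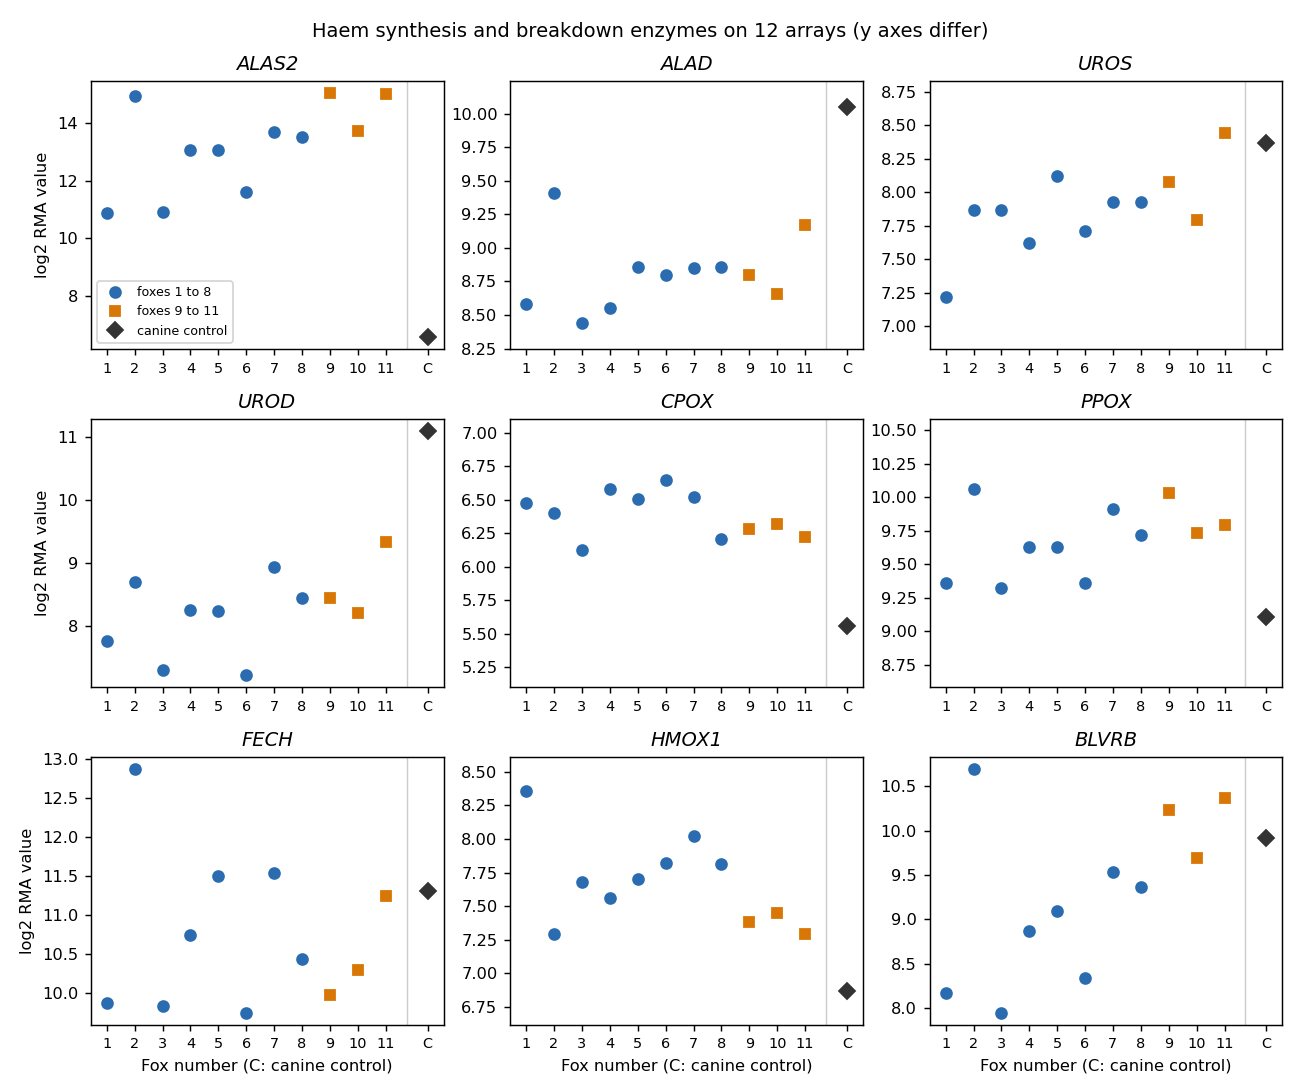
Log2 values of the 9 enzymes (y axes, which differ) on each array (x axes): foxes 1 to 8 as circles, foxes 9 to 11 as squares and the canine control, marked C, as a diamond. ALAS2 ran from 10.89 to 15.05 in the foxes with the control at 6.57, while UROD lay between 7.22 and 9.33 in the foxes with the control at 11.10.

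Over the 11 foxes, 4 of the 9 genes, ALAS2, UROD, FECH and BLVRB, had an SD of 0.5 or more, beside 18.3% of all genes. The same 4 genes reached it within foxes 1 to 8, beside 9.61% of all genes, and also there without fox 2. ALAS2 alone had an SD of 1 or more, beside 3.43% of all genes. These shares are descriptions with no test. Foxes 9, 10 and 11 overlapped foxes 1 to 8 in each of the 9 genes, whereas 28.8% of all genes had no overlap. In ALAS2, foxes 9, 10 and 11 lay between 13.74 and 15.05, against 10.89 to 14.95 in foxes 1 to 8. Of all 19 probe sets, 2 did not overlap, the lesser ALAD probe set, where foxes 9, 10 and 11 were above, and 1 of BLVRB, where they were below, beside 27.2% of all probe sets.

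Each fox was also tested against the other 10. Limma called 0 of the 99 pairs of a fox and a gene after Benjamini-Hochberg adjustment over all probe sets, beside 0.0123% of all such pairs of a fox and a probe set. The unadjusted p was under 0.05 in 6 pairs, and limma with trend and robust settings also called 0, with 6 unadjusted. The lowest adjusted p was that of FECH in fox 2, which lay 2.37 above the mean of the others (SE 0.67, adjusted p by limma 0.161). HMOX1 in fox 1 lay 0.76 above the others (adjusted p by limma 0.903).

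The second question is whether the enzymes rose and fell together from fox to fox. Within foxes 1 to 8, 14 of the 36 pairs of genes were correlated by an exact two-sided permutation test with Benjamini-Hochberg adjustment, and all 14 were positive and lay among 6 genes: ALAS2, ALAD, UROD, PPOX, FECH and BLVRB. ALAD with UROD was the only pair of these 6 genes that was not called (r = 0.58, exact permutation p = 0.123, adjusted p = 0.278). The share of called pairs among all genes was not counted, so the pair counts are not a result about the enzymes as a set. Of all other genes, 8.44% had an r of at least 0.8 with ALAS2 in these foxes. ALAS2 and BLVRB, the first synthesis enzyme and a breakdown enzyme, had r = 0.97 and rho = 0.98 (exact permutation p = 7.44e-05 and 0.000397, adjusted p = 0.00134 for r). PPOX, with its SD of 0.26, ranked the 8 foxes exactly as BLVRB did (r = 0.97, exact permutation p = 2.48e-05 for r and 4.96e-05 for rho, the smallest that 8 foxes allow for ranks, adjusted p = 0.000893 for r). These values rest on 1 probe set a gene. Further probe sets followed the one used with an r of 0.65 for PPOX, 0.47 for ALAD, and 0.55 and 0.23 for UROS. With the probe sets of a gene averaged, PPOX with BLVRB had r = 0.92.

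ALAS2 and FECH, the first and last steps, had r = 0.90 and rho = 0.83 (exact permutation p = 0.00265 and 0.0154, adjusted p = 0.0136 for r), and ALAS2 and UROD had r = 0.88 and rho = 0.86 (exact permutation p = 0.00533 and 0.0107, adjusted p = 0.0193 for r). Without the 2 foxes farthest from the median of ALAS2, r was 0.89 for FECH, 0.87 for UROD and 0.97 for BLVRB, but over 6 foxes none of the 3 pairs was called (adjusted p = 0.15, 0.237 and 0.0833, exact permutation test). ALAS2 with PPOX and PPOX with BLVRB were the 2 pairs called in that setting (adjusted p = 0.025 for both, exact permutation test). The calls of ALAD were lost without fox 2, where its r was 0.75 with BLVRB, 0.67 with ALAS2, 0.62 with PPOX and 0.54 with FECH, against 0.91, 0.81, 0.80 and 0.83 with fox 2. Over all 8 foxes the rho of ALAD was 0.83 with BLVRB, 0.79 with ALAS2, 0.83 with PPOX and 0.67 with FECH. By rank the pairs with ALAS2 and FECH were not called (adjusted p = 0.0773 and 0.214, exact permutation test). Those with BLVRB and PPOX were (adjusted p = 0.0461 for both, exact permutation test). In all, 12 of the 36 pairs were called by rank. Without fox 2, 6 of the 36 pairs were called, which are all pairs among ALAS2, UROD, PPOX and BLVRB, with an r between 0.89 and 0.98. The pairs of FECH were not called then either, but their r was 0.83 with ALAS2, 0.85 with UROD, 0.86 with PPOX and 0.83 with BLVRB (adjusted p from 0.0982 to 0.144, exact permutation test). After quantile normalization again ALAS2 with BLVRB was the only pair called (r = 0.97, adjusted p = 0.000893, exact permutation test).

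UROS, CPOX and HMOX1 were in no called pair. CPOX had an r between -0.25 and 0.14 with the other 8 genes. HMOX1 had a negative r with each of the other genes except CPOX, from -0.59 with ALAS2 to -0.21 with UROD, none of them called (adjusted p from 0.278 to 0.789, exact permutation test); without fox 2 its r with ALAS2 was -0.32.

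**Figure D2:**
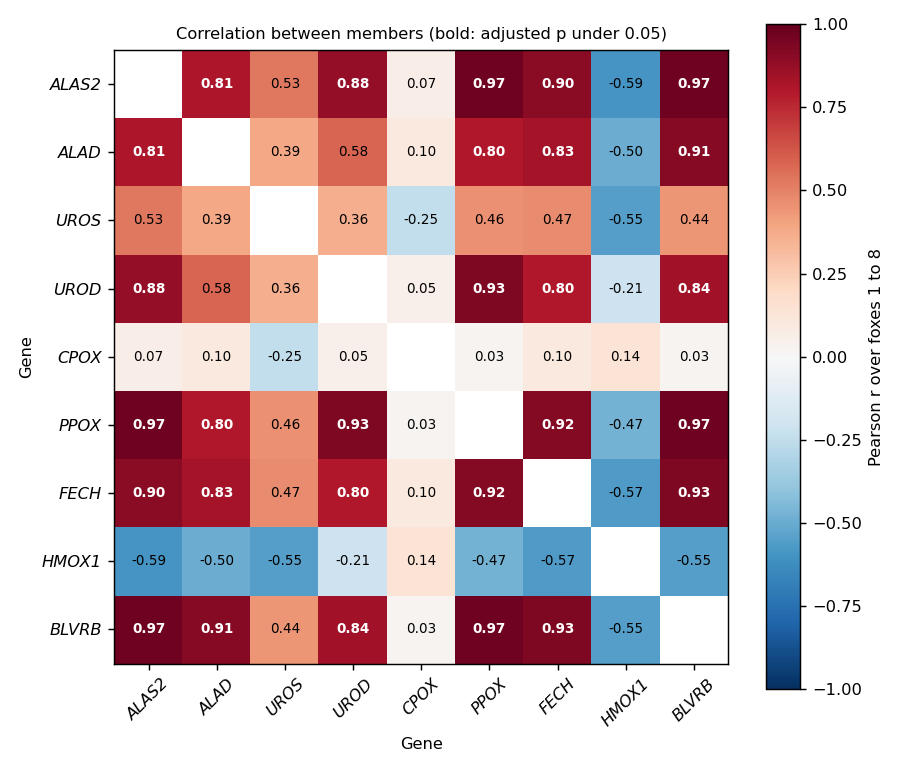
Pearson r over foxes 1 to 8 between each pair of the 9 enzymes (both axes: genes in pathway order; colour: r from -1 to 1), with called pairs in bold. ALAS2, ALAD, UROD, PPOX, FECH and BLVRB form a block of r between 0.58 and 0.97, while HMOX1 runs from -0.59 to 0.14.

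A correlation of at least 0.8 with ALAS2 within foxes 1 to 8 was reached by 5 of the other 8 enzymes, beside 8.44% of all other genes. The genes whose pattern was most like that of ALAS2, out of 1404 genes with an SD of at least 0.5 in these foxes, were HAGH, a glyoxalase enzyme (r = 0.996), NDUFS3, a subunit of respiratory complex I (0.986), and SLC22A17, a receptor for lipocalin (0.986). HAGH ran from 7.75 to 11.69 in foxes 1 to 8. For BLVRB they were STMP1 (0.991), the lipase ABHD12 (0.987) and the kinase PIM1 (0.987). For FECH they were the pseudokinase STRADB (0.977), the chloride channel protein CLIC4 (0.970) and C11H9orf24 (0.969), and for UROD the mitochondrial dehydrogenase ACAD9 (0.955), HIRIP3 (0.946) and AIMP1 (0.932), which binds tRNA synthetases. These are likenesses over 8 arrays and carry no test.

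Red cell precursors and reticulocytes, the young red cells that still hold RNA, carry much of the haem synthesis RNA in blood, so the enzymes were set beside 15 erythroid marker genes that include none of them. In whole blood, fewer cells of a type and less RNA per cell cannot be told apart. The score, the mean of the 15 centred log2 values, was lowest in fox 1 (-0.30) and fox 3 (-0.19) and highest in fox 7 (0.12) and fox 2 (0.40). Of the 15 markers 2 had an SD of at least 0.5, the mitophagy receptor BNIP3L (0.94) and the ubiquitin ligase TRIM58 (0.70), both of maturing red cells.

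Of the 9 enzymes 6 were correlated with this score. ALAS2 had r = 0.95 and rho = 0.90 (exact permutation p = 0.000446 and 0.00456, adjusted p = 0.00223 for r), FECH r = 0.94 and rho = 0.88, BLVRB r = 0.94 and rho = 0.88, and PPOX r = 0.93 and rho = 0.88 (adjusted p of r from 0.00223 to 0.0024, exact permutation test). These 4 were also called without fox 2, with r from 0.85 to 0.93, and with the score taken without BNIP3L and TRIM58, with r from 0.86 to 0.93. ALAD (r = 0.84, adjusted p = 0.0254, exact permutation test) was not called without fox 2 (r = 0.57), without the 2 farthest foxes (r = 0.53) or by rank (rho = 0.60, adjusted p = 0.198). UROD (r = 0.75, adjusted p = 0.0448, exact permutation test) was not called without fox 2 (r = 0.76, adjusted p = 0.095), after quantile normalization again (r = 0.56, adjusted p = 0.218), with centred arrays (adjusted p = 0.0581) or without BNIP3L and TRIM58 in the score (adjusted p = 0.0549). In the remaining settings both were called. For UROD these were ranks (rho = 0.81), the 2 farthest foxes left out (r = 0.92) and averaged probe sets of a gene (r = 0.77). For ALAD they were quantile normalization again (r = 0.85), centred arrays (0.81), averaged probe sets (0.91) and the score without BNIP3L and TRIM58 (0.83). An r of at least 0.8 with the score was reached by 5 of the 9 enzymes, beside 8.63% of all genes outside the score. HMOX1 had r = -0.73 and rho = -0.50 with the score (exact permutation p = 0.0456 and 0.216, adjusted p = 0.0587 for r). Without the 2 foxes farthest from the median of the score, r was 0.30 (exact permutation p = 0.576), so the negative relation was not seen without them. The r of HMOX1 was -0.50 without fox 2, -0.60 without BNIP3L and TRIM58 in the score, and -0.80 with centred arrays.

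None of 7 other measures of the arrays was called with ALAS2. The neutrophil marker level had r = 0.77 and rho = 0.74 with ALAS2 (exact permutation p = 0.0229 and 0.0458, adjusted p = 0.16 over the 7), and r = 0.46 without the 2 farthest foxes. Monocyte, platelet and lymphocyte marker levels, the GAPDH and BioB controls and the spread of values on each array had r between 0.31 and 0.65 (adjusted p from 0.189 to 0.446, exact permutation test). For the BioB spike, on which fox 2 stood apart, r was 0.59 with fox 2 and -0.02 without it, while for the lymphocyte markers it was 0.31 with fox 2 and 0.71 without it. Without the 2 farthest foxes, r was 0.67 for the monocyte markers and 0.71 for the spread of values. The part of these measures in the joint variation of the enzymes was not tested further.

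**Figure D3:**
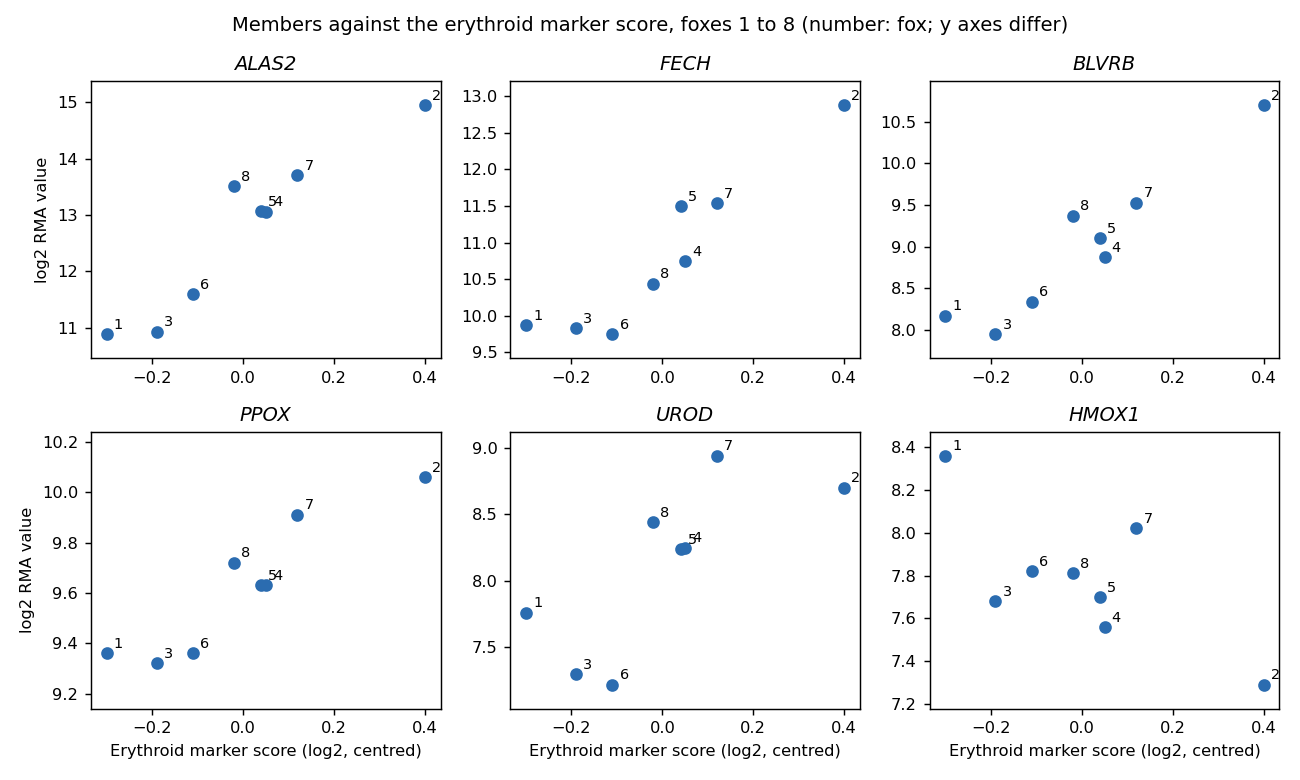
Log2 values of 6 enzymes (y axes, which differ) against the erythroid marker score (x axes, mean of centred log2 values) in foxes 1 to 8, each point labelled with its fox. ALAS2, FECH, BLVRB, PPOX and UROD lie low in foxes 1, 3 and 6, and HMOX1 is highest in fox 1 (8.36) and lowest in fox 2 (7.29).

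The third question is how the fox arrays compare with the canine control. ALAS2 was far higher in the foxes, UROD and ALAD were lower, and CPOX and HMOX1 were slightly higher. ALAS2 lay between 10.89 and 15.05 in the foxes, against 6.57 on the control, a fox minus control difference of 6.66 (SE 1.45, adjusted p by limma 0.0022). The control value lies under that array's median of 6.85 and is not shown to be above background, so the difference may understate the true one. UROD lay between 7.22 and 9.33 in the foxes, against 11.10 on the control, a difference of -2.85 (SE 0.61, adjusted p by limma 0.00208). ALAD lay between 8.44 and 9.41 in the foxes, against 10.05 on the control, a difference of -1.23 (SE 0.28, adjusted p by limma 0.00283). The second ALAD probe set differed by -2.35. After quantile normalization again the ALAD difference was -0.45 and no longer called (adjusted p by limma 0.227).

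CPOX lay between 6.13 and 6.65 in the foxes, against 5.56 on the control, a difference of 0.83 (SE 0.18, adjusted p by limma 0.0025). Its values lay under the array median on the control (6.85) and in all foxes, and are not shown to be above background. HMOX1 lay between 7.29 and 8.36 in the foxes, against 6.87 on the control, a difference of 0.80 (SE 0.32, adjusted p by limma 0.0468). All 11 foxes lay on the same side of the control in these 5 genes and in PPOX, 6 of 9 in all, beside 77.9% of all genes. The median fox minus control difference over all probe sets was 0.46, so relative to it CPOX differed by 0.38 and HMOX1 by 0.35. The HMOX1 call was lost when every array was centred (0.53, adjusted p by limma 0.186), after quantile normalization again (0.57, adjusted p by limma 0.204), with dim probe sets left out (adjusted p by limma 0.0526) and without any 1 of foxes 3 to 8 (highest adjusted p by limma 0.0625).

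The other 4 genes were not called by the probe set used, but the second PPOX probe set was called higher in the foxes (0.77). PPOX was 9.69 ± 0.26 (SD, n = 11) in the foxes and 9.11 on the control (difference 0.57, adjusted p by limma 0.0747). UROS was 7.87 ± 0.31 (SD, n = 11) in the foxes and 8.37 on the control, and 1 of its 3 probe sets was called lower in the foxes (-1.22). FECH was 10.73 ± 0.98 (SD, n = 11) in the foxes and 11.31 on the control, and BLVRB was 9.30 ± 0.92 (SD, n = 11) in the foxes and 9.92 on the control. The FECH probe sets did not share a direction: 2 had negative differences and 3 positive ones, of which the flat one was called (1.07, SE 0.13).

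**Figure D4:**
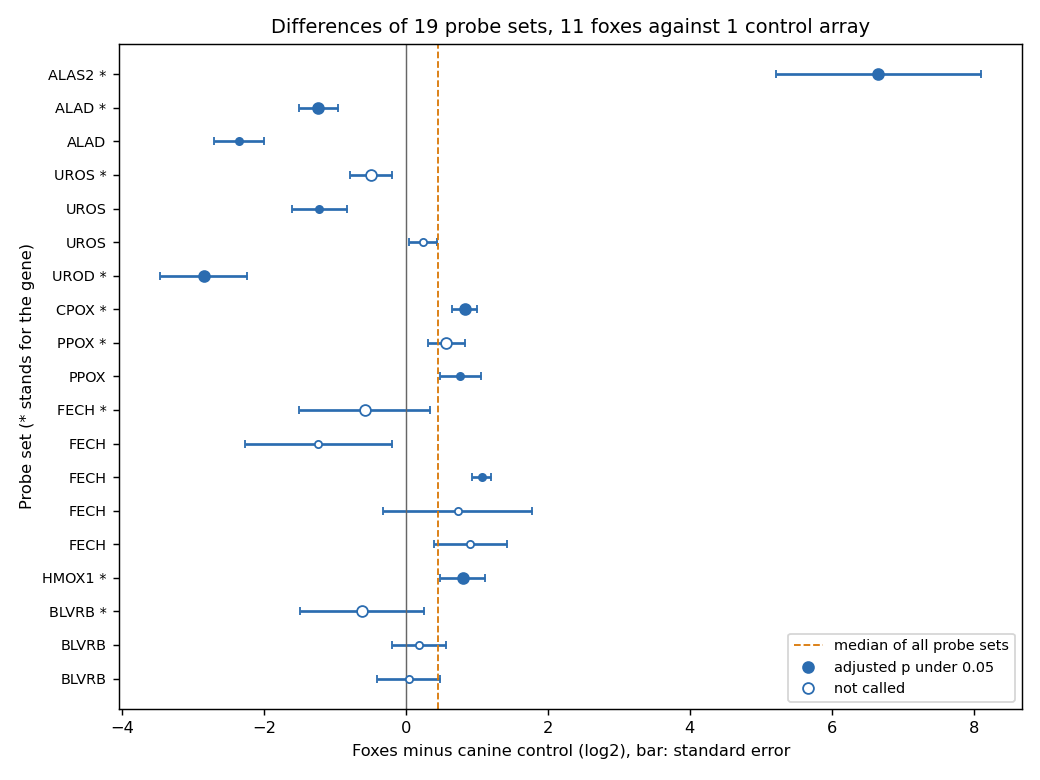
Fox minus control difference (x axis, log2, with its standard error) of all 19 probe sets (y axis), filled where limma's adjusted p was under 0.05, with the probe set that stands for its gene marked by a star. ALAS2 stands alone at 6.66, UROD at -2.85 and both ALAD probe sets are below 0, while the 5 FECH probe sets lie on both sides of 0.

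By gene, 3 of 9 were called higher in the foxes and 2 lower, beside 44.6% and 18.5% of all genes (63.2% called either way). By probe set 5 of 19 were higher and 4 lower, beside 42.1% and 18.9% of all probe sets (61% either way), and the control lay outside the foxes in 11 of 19, beside 77%. These shares are not a result about the enzymes as a set. The median difference of the 9 genes was -0.49. Beside them, 12 of the 15 erythroid markers were higher in the foxes and 1, HEMGN, was lower, with a mean level between 8.25 and 8.95 in the foxes and of 7.61 on the control. These marker counts use 1 probe set a gene. Of the further ANK1 probe sets, 1 was lower in the foxes (-1.55) and the other higher (1.36). On the GAPDH measure the control (-0.08) lay below all foxes. The part of that measure, of the erythroid markers and of the liver markers in the enzyme differences was not tested. The control is 1 array, so limma takes its spread from the foxes, and an exact permutation of 1 array against 11 could not give a p below 0.0833.

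Other genes of haem handling were read from a list of 52, of which 36 were measured. In the foxes 9 were higher than on the control, 11 lower and 16 not called, beside 44.6% higher and 18.5% lower of all genes (63.2% called), and the median difference was 0.24. These genes had 42 further probe sets. In 10 of the 16 uncalled genes a further probe set was called, and in 2 called genes, POR and PPARGC1A, a further one was called in the opposite direction. ALAS1, HMOX2 and BLVRA, whose reactions are those of ALAS2, HMOX1 and BLVRB or close to them, were lower in the foxes. ALAS1 lay between 8.19 and 10.79 in the foxes, against 12.24 on the control, a difference of -3.05 (SE 0.83, adjusted p by limma 0.00771), where ALAS2 was 6.66 higher. HMOX2, the constitutive haem oxygenase, was also lower (-1.59), as was BLVRA, the other biliverdin reductase (-2.10, adjusted p by limma 0.015 and 9.22e-05), where HMOX1 was 0.80 higher and BLVRB was not called. All 11 foxes lay below the control in ALAS1, HMOX2 and BLVRA. Foxes 9, 10 and 11 also lay above foxes 1 to 8 in these 3 genes, for ALAS1 between 10.26 and 10.79, against 8.19 to 9.11. Of all genes, 28.8% had no overlap in either direction. Others of the 36 also had foxes 9, 10 and 11 above, among them ACO1, ISCU and NFE2. The part of the GAPDH measure, on which these foxes lay between foxes 1 to 8 and the control, was not tested.

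Of 6 breakdown and salvage genes, 4 were lower in the foxes and 0 higher by the probe set used, beside 18.5% and 44.6% of all genes. The largest difference was that of the plasma haem carrier hemopexin, HPX (-5.01), a liver product. Of the 13 further probe sets of this role, 5 were called higher, 5 lower and 3 not called. The higher ones were of LRP1 (1.08, 0.72 and 1.12), CD163 (1.29) and POR (0.89), and the lower ones of HMOX2, BLVRA and HPX. Of the 11 genes of control, 5 were higher in the foxes, a share near the 44.6% of all genes, among them the erythroid factors NFE2 (1.60), GATA1 (1.06) and KLF1 (1.03) and the small Maf factor MAFG (1.06); GATA1 and KLF1 are also on the erythroid marker list. Another 4 were lower, namely ACO1 (-3.54) and IREB2 (-1.72, with its further probe set not called), the iron regulatory proteins that bind the ALAS2 transcript, the ALAS-regulating mitochondrial unfoldase CLPX (-1.73), and EIF2AK1, the haem-regulated kinase (-0.86). Of the mitochondrial carriers, SLC25A37, which imports iron, was higher (2.33, with its 2 further probe sets not called) and the porphyrin transporter ABCB6 lower (-1.33). Of the haem carriers, SLC48A1 (1.53), HEBP2 (1.17) and FLVCR1 (0.72) were higher and PGRMC1, which binds FECH, was lower (-4.52). Read from 1 probe set a gene, none of 3 genes of iron-sulfur supply and neither globin gene was called. Further probe sets of the cysteine desulfurase NFS1 (-2.07 and -0.78), the scaffold ISCU (-1.67) and myoglobin, MB (-4.20), were called lower in the foxes, and 1 of HBE1 higher (0.70).

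From fox to fox, 6 of these 36 genes had an r of at least 0.8 with ALAS2 within foxes 1 to 8, beside 8.44% of all other genes. They were the embryonic globin HBE1 (0.97), the glutaredoxin GLRX5 (0.95), which is needed for iron-sulfur cluster assembly and for haem synthesis in red cells, the haem-binding HEBP1 (0.94), the transporters FLVCR2 (0.92) and SLC48A1 (0.89), and the carrier SLC25A39 (0.86). The r of HBE1 is that of 1 of its 2 probe sets, and the other lay between 3.88 and 4.86 in the foxes. Of 9 genes listed under globins only HBE1 and MB were measured, so the adult globins were not read. In both GLRX5 (SD 1.05) and HEBP1 (SD 0.84) fox 1 was lowest, at 8.58 and 9.28, and fox 2 highest, at 11.78 and 12.16. ALAS1 had an r of -0.15 with ALAS2.

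**Figure D5:**
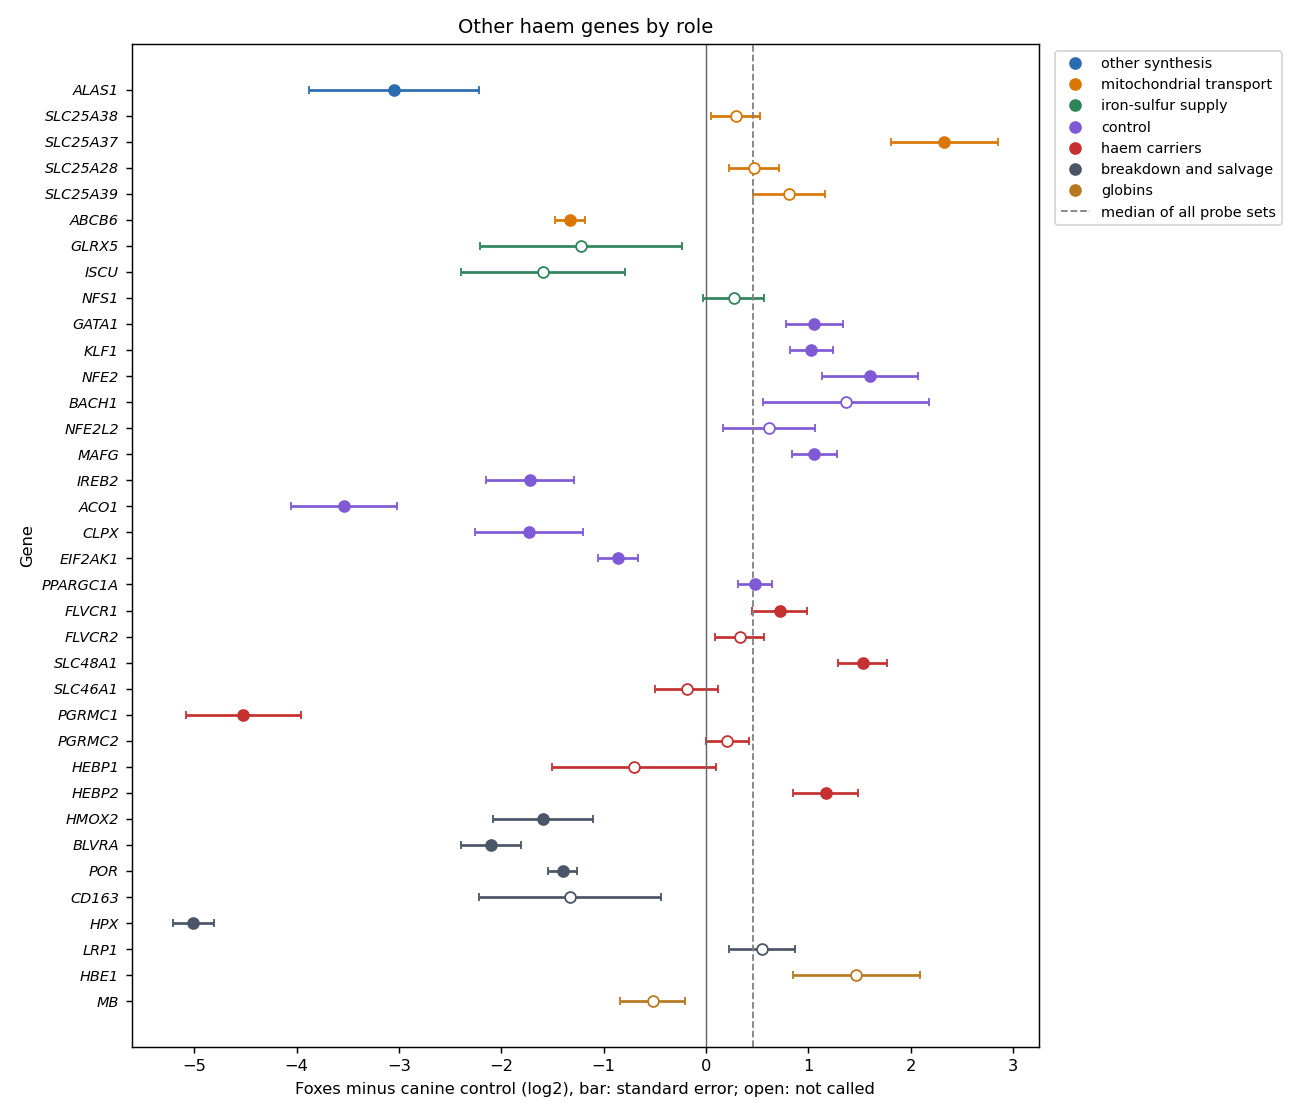
Fox minus control difference (x axis, log2, with its standard error) of the 36 other haem genes (y axis), coloured by role and filled where limma's adjusted p was under 0.05. ALAS1 lies at -3.05, HPX at -5.01 and SLC25A37 at 2.33, with the median of all probe sets at 0.46.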

How the data were processed

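RNA was measured on 12 arrays. Per the submitters' processing notes, the authors used RMA in Expression Console, software of Affymetrix, to make the deposited log2 values, 1 per probe set and array. Which versions they used, and if all arrays went through RMA as a single set, the sources used here do not say. The table gave no detection call, and the number of arrays limits the precision. For each gene the probe set whose mean was highest was used, after 111 Affymetrix control probe sets were left out. Probe set symbols came from GEO's platform annotation, and all 9 stood in the Arctic fox RefSeq table. Sequences and positions were not used here.

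Differences were fitted with limma 3.58.1 (lmFit and eBayes, R 4.3.3) over 42924 probe sets, with Benjamini-Hochberg adjusted p-values and a threshold of 0.05. Tested on simulated data for the foxes against the control, 93 of 100 probe sets shifted by 3 log2 units and 44 of 100 shifted by 1 were called. There were 12 false calls among the unshifted rest of the 42924. The simulated control had the means and SDs of the foxes, and few probe sets were shifted. These rates therefore need not hold for the real control. Correlations used exact permutation within foxes 1 to 8, adjusted over 36 pairs or 9 genes. By rule, the named genes were the 9 enzymes, the 3 genes most like each enzyme whose SD in foxes 1 to 8 was 0.5 or more, and per role of the haem list up to 4 called genes with the largest difference and up to 4 with the largest SD. Further genes of that list were named after their values were seen, namely GATA1, KLF1, MAFG, EIF2AK1, PPARGC1A and those named for their likeness to ALAS2. The members and lists were chosen with earlier results of these data known. ALAS2 against other array measures, leaving out fox 2, and the score without BNIP3L and TRIM58 were added after seeing the data.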

Additional observations from a re-analysis of the deposited data

How the results depend on the processing

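Against the control, 5 genes were called. With probe sets of low mean left out, which removed 1 of the 9 genes, CPOX, 3 were called and 1 of them was higher in the foxes. After a second quantile normalization 1 gene was called lower, since the ALAD call was lost (-0.45, adjusted p by limma 0.227). Leaving out 1 fox at a time gave 4 to 5 called genes, 2 to 3 of them higher. ALAS2 (5.83 to 6.90), UROD (-3.12 to -1.94) and CPOX (0.56 to 0.88) were called under every alternative run in which they were tested. The uncalled FECH difference was 0.47 with the second quantile normalization, and 0.18 where a gene's probe sets were averaged; for BLVRB it was 0.06 with the second quantile normalization. PPOX was called under both settings, at 1.09 with quantile normalization and 0.67 with averaged probe sets. Where an SD of 1 was asked for, 1 gene remained in place of 4. Of the 36 pairs of genes, 14 were correlated, with no share over all genes counted beside them. With the second quantile normalization 1 was, and there the r of those 14 pairs lay between 0.74 and 0.97 with adjusted p from 0.000893 to 0.107 by the exact permutation test. Without the 2 foxes farthest from the median 2 pairs were called, ALAS2 with PPOX and PPOX with BLVRB, over 6 foxes each, and 6 pairs without fox 2. The cause of these changes was not tested. No paired analysis was possible because the control is 1 array and the labels give no replicate numbers.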
